A study of Homo sapiens with 8 samples.

Results

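The miR-29 family was followed here as 7 of the 754 microRNA assays run on each sample. An assay was taken as a member when its name, without the species prefix, was miR-29a, miR-29b, miR-29c or a # strand of these, where # marks the passenger strand of a hairpin. These were miR-29a, miR-29b, miR-29c, miR-29a#, miR-29b-1#, miR-29b-2# and miR-29c#. The miR-29c# assay carries a rat prefix, and how well it reads the human strand was not tested.

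The samples came from 4 established human lines of lung adenocarcinoma (PC9, PC3, LC2/ad and A549), all grown in RPMI medium with fetal bovine serum, each as an untreated control and after TGF-β1 at 5 ng/ml for 72 h. TGF-β1 is a cytokine that pushes epithelial cells towards a mesenchymal state. Each line gave 1 control and 1 treated sample, so there were 8 samples, 4 per group, and no culture was repeated within a line. The authors did no authentication of the lines, and PC3, labelled as lung, has the name of a prostate line as well. The titles and treatment entries agree on which sample had TGF-β1, but the source names of all 8 samples word it the other way round. The treatment entries were followed, so every direction of change below rests on them, and no assay was used to test them.

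miR-29 is known as a brake on the extracellular matrix. Its members bind the messages of fibrillar collagens, fibrillin and elastin and lower their output, and they also target DNA methyltransferases and MCL1. In fibroblasts TGF-β lowers miR-29 while collagen rises, which is why the family is followed in fibrosis. Collagen and other messages were not measured in this series.

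The sequences are shown because the 3 mature strands are nearly identical and their assays have to be read with that in mind. Capitals mark the seed, bases 2 to 8, which pairs with a target message, and the sequences are those of RefSeq (GRCh38.p14), in which all 7 members were matched by name.
miR-29a: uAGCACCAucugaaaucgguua
miR-29b: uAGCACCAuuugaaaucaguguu
miR-29c: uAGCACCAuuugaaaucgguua
miR-29a#: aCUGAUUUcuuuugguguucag
miR-29b-1#: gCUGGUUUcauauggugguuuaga
miR-29b-2#: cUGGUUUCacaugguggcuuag
miR-29c#: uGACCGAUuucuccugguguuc

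The 3 mature strands share the seed AGCACCA, and 0 other mature microRNAs among the 2370 of the RefSeq table carry it. Counted from the 5′ end, miR-29a and miR-29c differ only by C10U, so 21 of 22 bases are the same. miR-29b and miR-29c differ by A18G, G21U and U22A over the first 22 bases. miR-29b alone of the 3 ends in AGUGUU, a motif known to carry miR-29b to the nucleus, and 2 of the 2370 mature strands (0.0844%) have this ending. Whether the miR-29a and miR-29c assays read each other's strand was not tested. The 4 passenger strands have 4 different seeds.

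The family comes from a pair of clusters. MIR29A (chr7:130876747-130876810) and MIR29B1 (chr7:130877459-130877539) lie 648 bases apart on the minus strand and overlap no other gene of the annotation. MIR29C (chr1:207801852-207801939) and MIR29B2 (chr1:207802443-207802523) lie 503 bases apart, also on the minus strand, within the span of the long non-coding RNA gene MIR29B2CHG (chr1:207801518-207822703). MIR29B1 and MIR29B2 make the same mature strand, so the miR-29b assay sums both loci, whereas miR-29b-1# and miR-29b-2# each read 1 of them. With the first base of miR-29b-1# skipped, these passengers match at 20 of 22 bases and differ by U11C and U19C, counted on miR-29b-1#. The hairpin of miR-29a shows how the strands sit, with the passenger first and the mature strand second, both in capitals.
MIR29A: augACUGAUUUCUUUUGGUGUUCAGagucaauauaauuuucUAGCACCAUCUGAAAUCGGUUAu

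Levels were read as threshold cycles (Ct), where each cycle less means a doubling of template, 40 stands for no amplification, and a Ct above 35 was taken as not detected. Of the 754 assays, 225 to 281 were detected per sample and 168 in all 8. Wells of the control RNA U6, 4 per card and sample, had an SD of 0.06 to 0.65 cycles (median 0.29), which shows the spread between wells of 1 sample. Of 7 epithelial marker microRNAs, 7 were detected in both PC9 samples and 4 to 6 in the others. Of 5 fibroblast and smooth muscle markers, 3 were detected in both PC3 samples, the lowest Ct being 25.1 in its control, and 0 to 3 elsewhere. Of 5 blood markers 0 to 2 were detected per sample, and of 4 muscle markers 0 to 1.

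The mature strands were detected in all 8 samples, and miR-29a gave by far the earliest signal. In control and TGF-β1 samples its Ct was 21.6 and 21.4 for A549, 21.5 and 21.5 for LC2/ad, 23.1 and 22.8 for PC3, and 23.6 and 22.95 for PC9. It ranked between 4 and 11 of the 377 assays on its card, so it was among the earliest in every sample. The Ct of miR-29c was 28.3 and 28.3 for A549, 29.3 and 29.2 for LC2/ad, 30.2 and 30.5 for PC3, and 31.4 and 30.6 for PC9. That of miR-29b was 30.3 and 30.6 for A549, 30.3 and 30.1 for LC2/ad, 31.8 and 32.3 for PC3, and 34.1 and 32.4 for PC9. miR-29b thus came 8.61 to 10.6 cycles after miR-29a and miR-29c 6.73 to 7.83 cycles after it. Assays differ in efficiency and were not calibrated against each other, so these gaps are not ratios of copies.

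The passenger strands lay near or beyond the limit. miR-29c# was detected in 6 samples, at 32.3 and 31.6 for A549, 32.1 and 32.4 for LC2/ad, and 33.5 and 34.9 for PC3, and did not amplify in PC9. miR-29a# was also detected in 6, at 32.7 in A549 after TGF-β1 but 39.7 in its control, 34.6 and 32.8 for LC2/ad, 33.04 and 33.3 for PC3, and 34.6 in PC9 after TGF-β1 with no amplification in its control. miR-29b-1# was detected only after TGF-β1 in LC2/ad (34.6) and PC9 (33.6), with 35.4 in the A549 control and 40 in the other 5 samples. miR-29b-2# was detected only in LC2/ad, at 33.3 and 34.3, with 37.0 in the PC3 control, 39.5 in the PC9 control and 40 in the other 4.

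**Figure D1:**
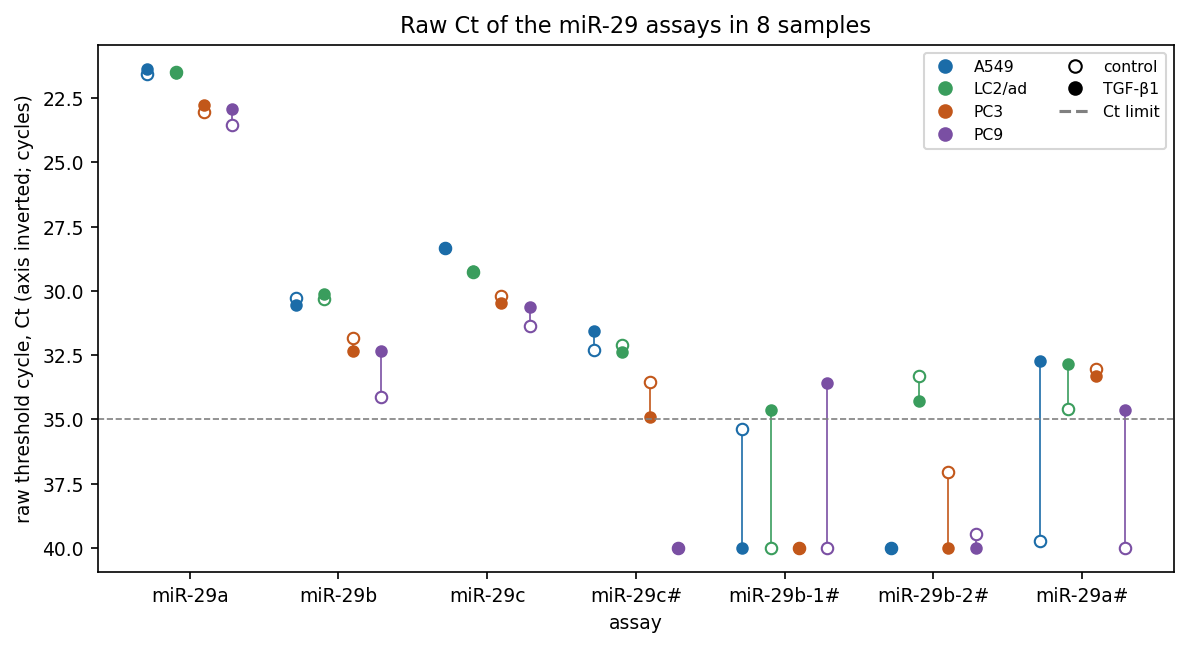
Raw Ct in cycles (inverted axis, so higher points mean more template) of the 7 miR-29 assays in the control (open) and TGF-β1 (filled) sample of each line, joined by a line; the dashed line is the limit of 35. miR-29a sits between 21.4 and 23.6, miR-29c and miR-29b between 28.3 and 34.1, and the # strands from 31.6 to no amplification at 40.

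The first comparison asked where the family was high or low among the lines. For this, each Ct was subtracted from the mean Ct of the microRNAs detected in all 8 samples on the same card, which gives a log2 level above that mean. The level of miR-29a in control and TGF-β1 samples was 6.27 and 6.25 for A549, 5.98 and 6.35 for LC2/ad, 5.60 and 5.96 for PC9, and 4.38 and 4.66 for PC3. Both PC3 samples lay below all others. The level of miR-29c was -0.46 and -0.70 for A549, -1.80 and -1.33 for LC2/ad, -2.23 and -1.73 for PC9, and -2.79 and -3.05 for PC3. Here too both PC3 samples were lowest, and both A549 samples were highest.

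miR-29b had levels of -2.42 and -2.95 for A549, -2.83 and -2.26 for LC2/ad, -4.40 and -4.89 for PC3, and -4.97 and -3.44 for PC9. Its PC9 samples stood 1.54 apart and enclosed both PC3 samples. Levels were tested over all assays with limma, with the 2 samples of a line as its replicates and treatment as a term. Of the 7 members 4 differed between lines (limma F test), against 60.1% of the 318 assays tested, so this share is near that of all assays. The adjusted p was 0.00343 for miR-29a, 0.0486 for miR-29b (0.0212 to 0.602 over 14 other settings, 4 of which kept the call), 0.00631 for miR-29c and 0.000896 for miR-29c#. It was 0.435 for miR-29b-1#, 0.576 for miR-29b-2# and 0.577 for miR-29a#, which lie mostly at the limit. These depended on how undetected samples were set: miR-29b-2# was called in 3 of 12 other settings, with a Ct limit of 38 (adjusted p = 0.00370, limma), with no limit (0.00659) and with each sample's own limit (0.0216). miR-29b-1# was called in 1 of 12, with each sample's own limit (adjusted p = 0.0391, limma).

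**Figure D2:**
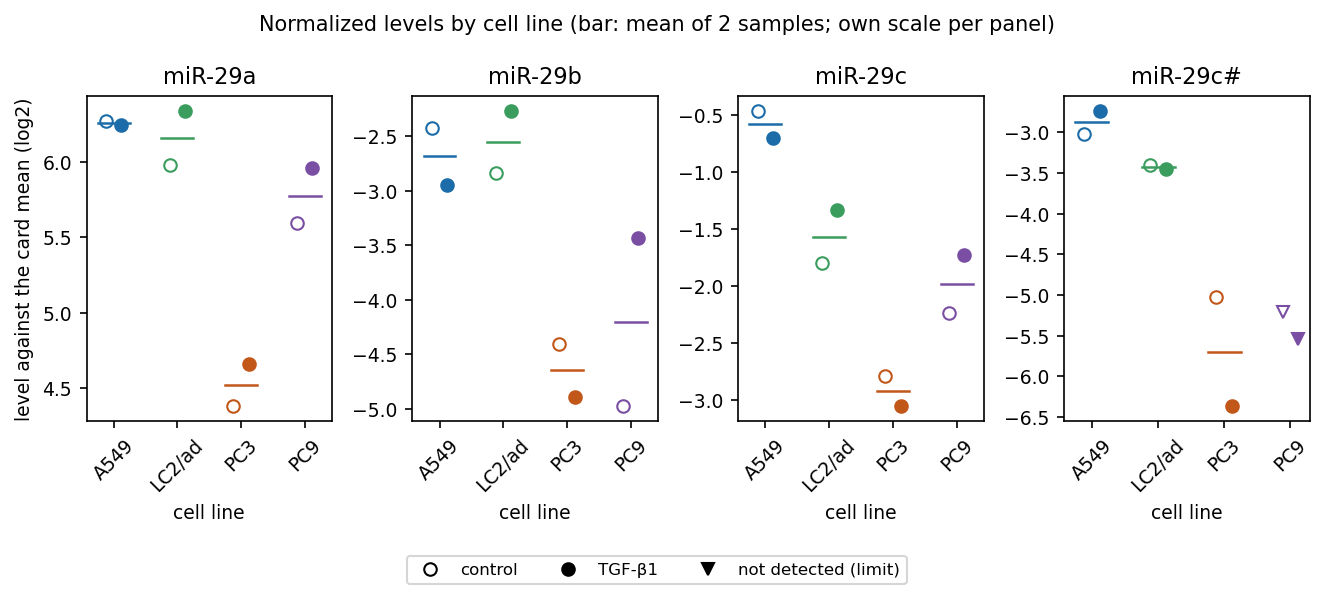
Normalized level (log2, above or below the mean of the card's microRNAs) of miR-29a, miR-29b, miR-29c and miR-29c# by cell line, with control (open) and TGF-β1 (filled) samples, a bar for the mean of 2 detected samples and triangles for samples below the limit. miR-29a is lowest in PC3, at 4.38 and 4.66, and miR-29c is highest in A549, at -0.46 and -0.70.

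PC3 was the low line in the pairwise tests. miR-29a was 3.34-fold lower in PC3 than in A549 (log2 difference 1.74, SE 0.20, adjusted p = 0.00179, limma), 3.13-fold lower than in LC2/ad (adjusted p = 0.00255, limma) and 2.40-fold lower than in PC9 (adjusted p = 0.00540, limma). miR-29c was 5.06-fold lower in PC3 than in A549 (log2 difference 2.34, SE 0.29, adjusted p = 0.00240, limma), 2.56-fold lower than in LC2/ad (adjusted p = 0.0157, limma) and 1.92-fold lower than in PC9 (adjusted p = 0.0477, limma). miR-29b was 3.90-fold lower in PC3 than in A549 (log2 difference 1.96, SE 0.56, adjusted p = 0.0375, limma) and 4.28-fold lower than in LC2/ad (adjusted p = 0.0345, limma). Between PC3 and PC9 miR-29b differed by 0.44 (SE 0.56, adjusted p = 0.619, limma). Between A549 and PC3, 4 of the 7 members were called, as were 47.8% of all assays, and between LC2/ad and PC3 4 of 7 against 43.4%.

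From high to low the order of mean levels was A549, LC2/ad, PC9 and PC3 for miR-29a and miR-29c, and LC2/ad, A549, PC9 and PC3 for miR-29b. A549 and LC2/ad differed by 0.10 in miR-29a (SE 0.20, adjusted p = 0.940, limma), by 0.99 in miR-29c (SE 0.29, adjusted p = 0.213, limma) and by 0.14 in miR-29b (SE 0.56, adjusted p = 1, limma). For miR-29b the next neighbours, A549 and PC9, differed by 1.52 (SE 0.56, adjusted p = 0.0892, limma). Between A549 and LC2/ad 0 of the 7 members were called, as were 0.943% of all assays. LC2/ad and PC9 differed by 0.38 in miR-29a (adjusted p = 0.205, limma) and by 0.41 in miR-29c (adjusted p = 0.322, limma), and with the median normalizer PC9 came before LC2/ad for both. A549 exceeded PC9 by 1.40 in miR-29c (adjusted p = 0.0150, limma; lost in 2 of 10 other settings) and by 0.48 in miR-29a (adjusted p = 0.118, limma). Of the 7 members, 2 were called between A549 and PC9 (40.9% of all assays), 1 between LC2/ad and PC9 (39%) and 2 between PC3 and PC9 (45.9%).

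The low place of PC3 depended in part on the scaling and the Ct limit. In 10 other settings, the calls of miR-29a and miR-29c against A549 and of miR-29a against LC2/ad were lost in 0. The call against PC9 was lost in 7 of the 10 for miR-29c and in 2 for miR-29a (U6 and all control RNAs), and that of miR-29c against LC2/ad in 3. For miR-29b the call was lost in 6 of 10 against A549 and in 5 against LC2/ad. With U6 alone in place of the microRNA mean, PC3 lay below PC9 by 0.35 in miR-29a (adjusted p = 0.535, limma) and by 0.03 in miR-29c (adjusted p = 1, limma), and above it by 0.47 in miR-29b (adjusted p = 0.748, limma). Against A549, PC3 was then 1.71 lower in miR-29a and 2.30 lower in miR-29c (adjusted p = 0.0222 and 0.0158, limma). Against LC2/ad it was 1.65 lower in miR-29a (adjusted p = 0.0268, limma), while miR-29c at 1.36 (adjusted p = 0.0713, limma) and miR-29b at 2.10 (adjusted p = 0.0987, limma) missed the threshold, as did miR-29b against A549 at 1.93 (adjusted p = 0.121, limma). The mean Ct of the card's microRNAs was 29.1 and 28.9 in PC9 against 27.4 to 27.9 in the other lines, so the signals of PC9 came later on average. Without PC3, the adjusted p between the remaining lines was 0.299 for miR-29a, 0.153 for miR-29b and 0.0584 for miR-29c (limma F test). Of the 5 fibroblast and smooth muscle markers, PC3 had miR-199a-3p (Ct 25.1 and 25.3), miR-214 (25.7 and 25.4) and miR-199a-5p (32.95 and 32.5), while miR-143 (36.6 and 40) and miR-145 (35.1 and 36.1) were not detected there. miR-214 and miR-199a-5p did not amplify in any sample of the other lines. Their part in the miR-29 levels was not tested.

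The passenger strand of miR-29c was likewise higher in A549 and LC2/ad than in PC3. Its level was -3.02 and -2.73 for A549, -3.40 and -3.45 for LC2/ad, and -5.03 and -6.36 for PC3, and PC9 had none detected. On this card a level under -5.21 cannot be measured in every sample and was set to that value, so A549 was at least 4.74-fold above PC3 (adjusted p = 0.000759, limma) and at least 5.06-fold above PC9 (adjusted p = 0.000807, limma). In PC9 the mature miR-29c was measured at Ct 31.4 and 30.6 while miR-29c# did not amplify, and in PC3 both strands were detected.

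The second comparison asked what TGF-β1 did to the family. None of the 3 mature strands passed the test over the lines. miR-29a had a log2 change, TGF-β1 minus control, of -0.03 for A549, 0.36 for LC2/ad, 0.28 for PC3 and 0.37 for PC9, and a mean of 0.25 (SE 0.18, n = 4, adjusted p = 0.618, limma). The 95% interval of the mean was -0.19 to 0.69. miR-29c had -0.24 for A549, 0.47 for LC2/ad, -0.26 for PC3 and 0.51 for PC9, with a mean of 0.12 (SE 0.23, n = 4, adjusted p = 0.856, limma) and an interval of -0.45 to 0.68. miR-29b had -0.52, 0.57, -0.49 and 1.54 in the same order, with a mean of 0.27 (SE 0.40, n = 4, adjusted p = 0.789, limma) and an interval of -0.72 to 1.27.

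The mature strands of miR-29b and miR-29c were thus higher after TGF-β1 in LC2/ad and PC9 and lower in A549 and PC3, though with U6 miR-29c was 0.02 higher in A549. For U6 wells of 1 sample, at mean Ct of 18.55 to 19.8, the SD of a difference of 2 single wells was 0.44 log2. Whether it holds at the later Ct of miR-29b and miR-29c was not tested. The miR-29c changes in A549 (-0.24) and PC3 (-0.26) lie within this U6 value. Apart from miR-29b in PC9 (1.54), the other changes of these strands lie not far above it in size. miR-29a was higher in 3 of 4 lines, but its A549 value turned to 0.23 with U6, 0.13 with all control RNAs and 0.20 with the median, and its LC2/ad value to -0.014 with all control RNAs. Fibroblast and smooth muscle markers were also detected more often after TGF-β1 in LC2/ad and PC9, with 1 of 5 before and 3 after in LC2/ad and 0 and 2 in PC9, against 0 and 0 in A549 and 3 and 3 in PC3. The control and TGF-β1 samples had miR-145 at 35.9 and 31.3 in LC2/ad and at 36.4 and 32.3 in PC9, and miR-143 at 33.7 and 31.9 in LC2/ad and at 40 and 34.6 in PC9. miR-199a-3p was at 40 and 34.5 in LC2/ad and at 35.1 and 40 in PC9, while miR-214 and miR-199a-5p did not amplify in either line. Over all assays with the lower Ct between 34 and 35, the other sample was not detected in 85.5% of cases. miR-199a-3p in LC2/ad and miR-143 in PC9 fell in that range. The share was 2.4% between 30 and 32, where miR-145 in LC2/ad fell, and 15.9% between 32 and 33, where miR-145 in PC9 fell. Of all assays detected in either sample, 7.26% were found only after TGF-β1 in LC2/ad and 10.7% in PC9. Those found only in the control made up 13.9% and 8.33%. The part of these markers in the miR-29 changes was not tested. Of the 7 members 5 had a difference in at least 3 lines and were tested, and 0 were called, as were 0% of the 250 assays tested. At an unadjusted p under 0.05 the count was 0 of the 5 members and 30 of all assays. Of the 5, 0 were higher in every line with a value and 0 lower in every one, against 8.4% and 16% of all assays. The median mean change was 0.25 over these 5 members and -0.08 over all assays. Without PC9 the means of miR-29b and miR-29c were -0.15 and -0.012, so their positive signs rest on that line.

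**Figure D3:**
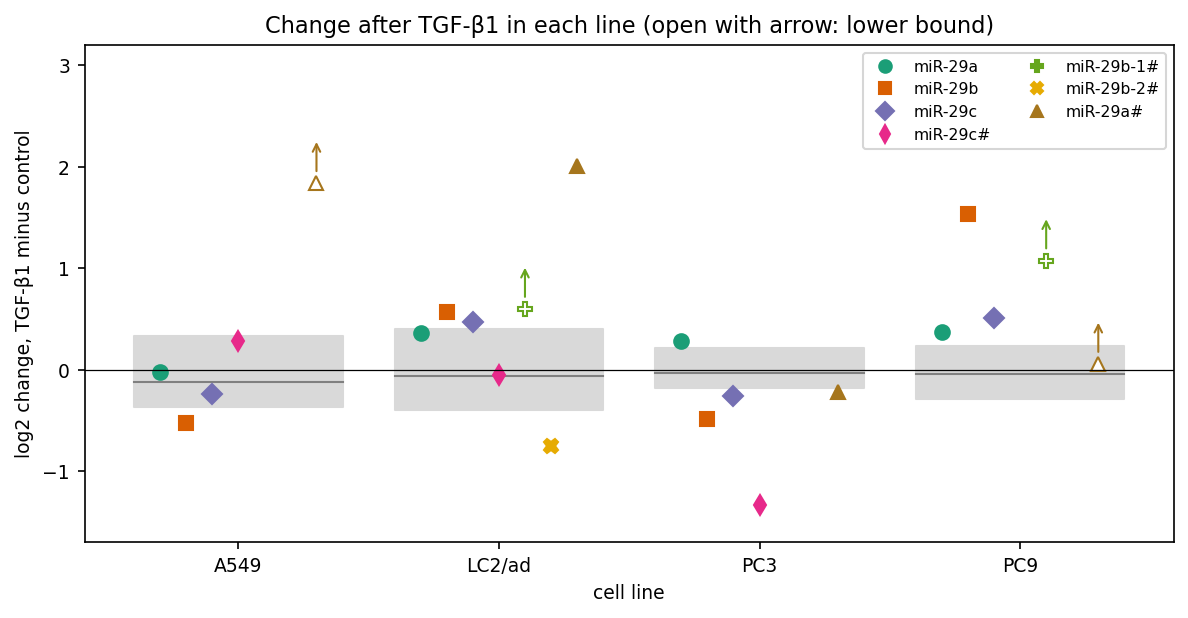
Log2 change after TGF-β1 of each miR-29 assay in each line; open symbols with arrows are lower bounds, where only the treated sample was detected, and grey bands span the middle of assays (the interquartile range) with both Ct values at most 32, with the median as a line. The mature strands lie between -0.52 and 0.57 in A549, LC2/ad and PC3, and miR-29b reaches 1.54 in PC9.

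Within a line the changes of the mature strands were set beside every assay whose Ct was at most 32 before and after treatment, where a 2-fold change was counted. Of the members within that limit, 3 for A549, 3 for LC2/ad, 2 for PC3 and 2 for PC9, 0 were 2-fold higher and 0 were 2-fold lower. Of all such assays 4.97% were higher and 2.48% lower for A549, 12% and 6.59% for LC2/ad, 0.562% and 0% for PC3, and 3.7% and 2.96% for PC9. The change of miR-29c stood at percentile 38.5 of these assays for A549, 78.4 for LC2/ad, 17.98 for PC3 and 89.6 for PC9. That of miR-29a stood at 58.4, 72.5, 78.7 and 82.2 in the same order. That of miR-29b stood at 14.9 for A549 and 81.4 for LC2/ad, and it was outside the limit for PC3 and PC9. These compare 1 sample with 1 sample, so there is no test. In LC2/ad and PC9 the placed strands lie in the upper part of the distribution, and miR-29a also lay above the middle in A549 and PC3.

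The largest change of a mature strand was that of miR-29b in PC9, from a Ct of 34.1 to 32.4. It was 2.90-fold higher after TGF-β1 on the microRNA mean, at Ct values outside the range used for counting and with no replicate. The size in PC9 depended on the scaling. With U6, RNU48 and all control RNAs the PC9 changes were 1.27, 0.96 and 1.03 for miR-29a, 2.44, 2.13 and 2.20 for miR-29b, and 1.41, 1.10 and 1.17 for miR-29c. The median over the 135 assays at Ct 32 or below moved from -0.04 to 0.80, 0.55 and 0.59 with it, so the whole set of assays moved up with these scalings. The authors' deposited table, which is scaled to U6, lists folds of 2.42 for miR-29a, 5.44 for miR-29b and 2.66 for miR-29c in PC9. In the other lines it lists 0.831 to 1.42 for the mature strands. Its PC9 fold was 2 or more for 5 of the 7 members, against 16.4% of all 754 assays, of which 382 were detected in no sample. Of the 135 assays at Ct 32 or below in PC9, 45 were 2-fold higher with U6. The other members at 2 or more, miR-29a# and miR-29b-1#, had a PC9 control at Ct 40.

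**Figure D4:**
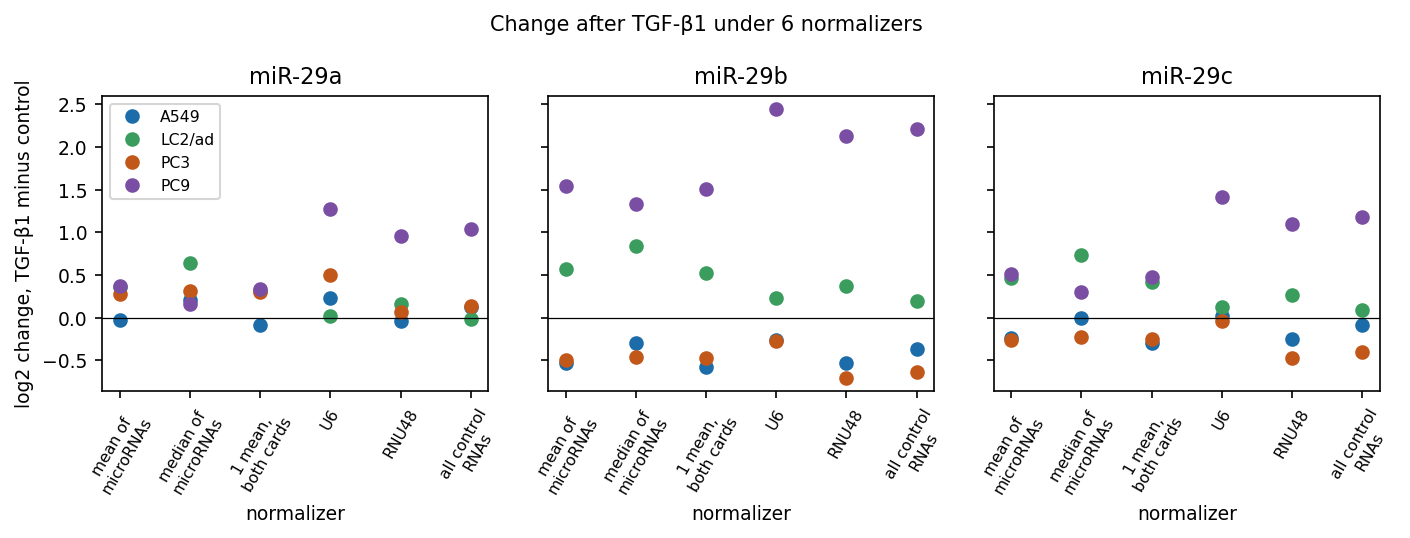
Log2 change after TGF-β1 of miR-29a, miR-29b and miR-29c in each line under 6 normalizers (means or medians of microRNAs, and control RNAs). PC9 moves from 0.37 to 1.27 for miR-29a between the microRNA mean and U6, while miR-29b in A549 and PC3 stays below 0 throughout.

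The passenger miR-29a# was higher after TGF-β1 in 3 of 4 lines. In LC2/ad its Ct went from 34.6 to 32.8, a 4.02-fold higher value (log2 2.01). In A549 it was detected only after TGF-β1, which gives at least 3.57-fold, and in PC9 likewise, at least 1.04-fold. In PC3 it had -0.22. The mean was 0.92 (SE 0.46, n = 4 with 2 bounds, adjusted p = 0.430, limma), so the test was not passed. Leaving out 1 line gave means from 0.56 (without LC2/ad) and 0.61 (without A549) to 1.30 (without PC3), and a Ct limit of 38 or none gave 2.42 and 3.35, with adjusted p of 0.222 to 0.9997 over 15 other settings (limma). Its mature partner miR-29a moved by -0.03 in A549 and 0.36 in LC2/ad.

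The other passengers gave fewer values. miR-29b-1# was detected only after TGF-β1 in LC2/ad (at least 1.51-fold) and in PC9 (at least 2.11-fold), and in neither sample of A549 and PC3. miR-29b-2# had -0.75 in LC2/ad, from 33.3 to 34.3, and no value elsewhere. miR-29c# had 0.29 for A549, -0.05 for LC2/ad and -1.34 for PC3, with a mean of -0.37 (SE 0.39, n = 3, adjusted p = 0.705, limma). Neither miR-29a# nor miR-29c# passed the test over lines, and miR-29b-1# and miR-29b-2# had too few values for it.

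Members detected only after TGF-β1 numbered 1 for A549, 1 for LC2/ad, 0 for PC3 and 2 for PC9, and 0 were detected only in the control in any line. Over all assays detected in either sample, 9.45% were found only after TGF-β1 for A549, 7.26% for LC2/ad, 7.17% for PC3 and 10.7% for PC9, and 6.91%, 13.9%, 7.51% and 8.33% only in the control. Such one-sided detection was frequent at these Ct values. When the lower Ct of a line's 2 samples was 30 or below, the other sample was not detected in 0 of 499 cases, but in 21 of 132 (15.9%) between 32 and 33, 61 of 113 (54%) between 33 and 34, and 112 of 131 (85.5%) between 34 and 35. miR-29a# in A549 (32.7) falls in the first of these 3 ranges, miR-29b-1# in PC9 (33.6) in the second, and the others (34.6 each) in the last.

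**Figure D5:**
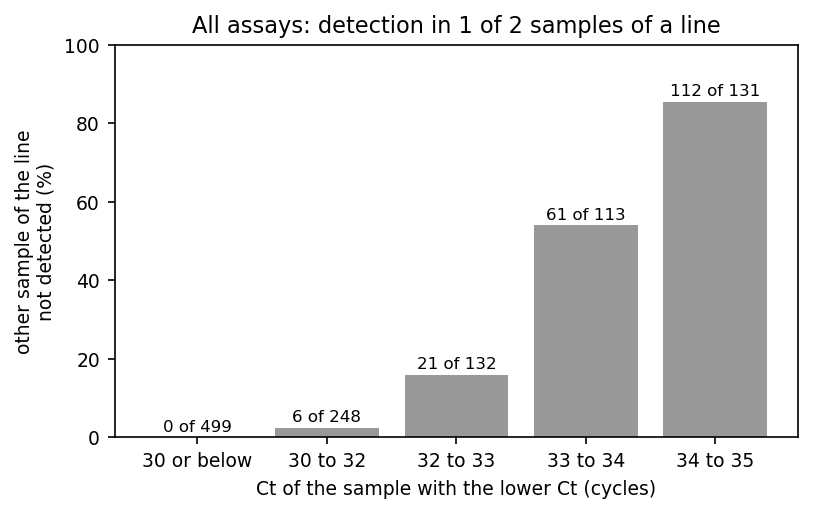
Percent of assay and line pairs in which the other sample of the line was not detected, by the Ct of the sample with the lower Ct, over all assays; counts stand above the bars. The share goes from 0 of 499 at Ct 30 or below to 112 of 131 between 34 and 35.

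The authors' deposited folds keep a Ct of 40 as a value, and for the passengers they are far from those above. For miR-29a# the authors' deposited table lists 96.5 in A549 and 48.1 in PC9, and for miR-29b-1# it lists 49.3 in LC2/ad, 97.5 in PC9 and 0.0307 in A549. In each of these 5 one of the samples did not amplify or had a Ct of 39.7. For miR-29a# in LC2/ad, detected in both samples, that table gives 4.09. Counted over all 7 members, the authors' deposited table has 1 at 2 or more and 1 at 0.5 or less for A549 (11.3% and 8.75% of all assays), 2 and 0 for LC2/ad (10.5% and 12.7%), 0 and 2 for PC3 (8.75% and 9.02%), and 5 and 0 for PC9 (16.4% and 6.37%). These shares are over all 754 assays, of which 382 were detected in no sample.

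Whether members moved alike was asked by subtracting their changes within each line, for 4 pairs with values in all 4 lines. miR-29b minus miR-29a was -0.50 for A549, 0.21 for LC2/ad, -0.77 for PC3 and 1.17 for PC9, a mean of 0.03 (SD 0.87, interval -1.35 to 1.40, exact sign-flip p = 1, adjusted p = 1). miR-29c minus miR-29a was -0.21, 0.10, -0.54 and 0.14, a mean of -0.13 (SD 0.32, interval -0.63 to 0.38, exact p = 0.625, adjusted p = 1). For miR-29c minus miR-29b the mean was -0.16 (SD 0.61, interval -1.12 to 0.81, exact p = 0.875, adjusted p = 1). miR-29a# minus miR-29a was 1.86 for A549, 1.64 for LC2/ad, -0.50 for PC3 and -0.31 for PC9, where the A549 and PC9 values are lower bounds (mean 0.67, SD 1.25, exact p = 0.5, adjusted p = 1). All 4 tests are two-sided, and 4 lines cannot give a p under 0.125. In each of the 3 pairs of mature strands, 2 lines were above 0 and 2 below. For miR-29a# minus miR-29a, 2 lines were above 0 and PC3 below, and the sign in PC9 is not known, since its value is a lower bound. Leaving out 1 line moved the mean of this pair between 0.28 (without A549) and 1.06 (without PC3).

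Pairs with fewer lines have values without a passing test. miR-29b-1# minus miR-29b was 0.03 in LC2/ad and -0.46 in PC9, both lower bounds. miR-29c# minus miR-29c was 0.53 for A549, -0.52 for LC2/ad and -1.08 for PC3 (exact p = 0.75, smallest possible 0.25). miR-29b-2# lay 1.32 under miR-29b in LC2/ad.

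Over the 8 samples, the assays with the pattern most like a mature strand were found by the root mean square difference of log2 levels after centring each assay, among the 167 other assays detected in all samples. These distances share libraries and are a description. For miR-29c the nearest was miR-29a (0.40), followed by miR-484 (0.48) and miR-320 (0.49), against a median of 1.19 over all. For miR-29a they were miR-484 (0.20), let-7e (0.32) and miR-22# (0.33), with miR-29c at rank 6 (0.40) and miR-29b at rank 23 (0.61) and a median of 1.10. For miR-29b they were miR-210 (0.49), miR-29c (0.56) and miR-149# (0.58), then miR-29a at rank 4 (0.61), with a median of 1.29. miR-210, a microRNA induced by hypoxia, had changes of -0.65 for A549, -0.40 for LC2/ad, 0.27 for PC3 and 1.06 for PC9.

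Other microRNAs tied to matrix and fibrosis were set beside the family from a pair of lists. Of those described as restraining matrix, such as miR-30, miR-26a and the miR-200 family, 15 of 18 assays were tested and 0 were called higher or lower, with 6 means above 0, 9 below and a median of -0.10. The largest means were 1.72 for miR-429 (adjusted p = 0.290, limma), which was called with U6 (mean 1.98, adjusted p = 0.00130, limma), and 1.12 for miR-200a (adjusted p = 0.370, limma). Of those described as promoting matrix, such as miR-21 and miR-199a, 7 of 14 were tested and 0 called, with 3 means above 0, 4 below and a median of -0.12. Among the tested ones the largest means were 0.91 for miR-27a (adjusted p = 0.296, limma) and -0.83 for miR-503 (adjusted p = 0.416, limma). This list also holds miR-143, miR-145 and miR-424, which had values in too few lines for the test. Their single-line changes included at least 4.07 for miR-145 in LC2/ad. For miR-424 they were at most -2.40 in A549 and 1.98 in LC2/ad. Over all 250 assays the median was -0.08.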

How the data were processed

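MicroRNAs were measured by TaqMan quantitative PCR on 2 cards in 8 samples of 4 cell lines, and the groups were taken from the treatment entry of the labels, since the source names word the exposure the other way. Raw Ct values were deposited with no normalization. The deposited ratios were computed by the authors against U6 and calibrated to the A549 control, per the file headers, and the deposited folds are their quotients. Recomputing the ratios from Ct, with the U6 wells of each card, gave a largest log2 difference of 4.07e-06, which fixed the card of each assay (miR-29a, miR-29b and miR-29c on A, the 4 passengers on B). The sources used here give no instrument settings.

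Ct values above 35 were set to 35, and where 1 sample was not detected the change is a bound. Changes over lines were tested on within-line differences with limma 3.58.1 in R 4.3.3 (moderated test, Benjamini-Hochberg over assays with values for 3 lines or more, threshold 0.05). The cell line in the labels pairs the samples. Over 168 assays, deviations from group means of a line's samples had correlations of 0.92 (A549), 0.81 (LC2/ad), 0.94 (PC3) and 0.92 (PC9). Levels between lines were tested with 1 detection limit per card. P-values of changes measure the spread of within-line differences over these lines. Those of levels measure the spread between the 2 samples of a line, after a treatment term common to all lines. The test steps were tested on simulated data. Named besides the members are the 3 assays nearest in pattern to each mature strand and the fibrosis list members with the largest mean change. Outside that rule, the fibroblast and smooth muscle markers were named with their Ct, as were the assays called with U6 and some untested or example list members. The members and lists were chosen with earlier results of these data known.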

Additional observations from a re-analysis of the deposited data

How the results depend on the processing

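In the test of change over lines, 0 calls of members came up in 16 alternatives for each mature strand, 15 for miR-29a# and 11 for miR-29c#. miR-29b-1# and miR-29b-2# had no such test. With U6 alone 2 assays were called, miR-135b and miR-429, the latter of the restraining list, and in the other settings 0, including the fit with no replicate block (0, where the paired fit also gave 0). Leaving out 1 line at a time moved the mean of miR-29b between -0.15 and 0.54 and that of miR-29c between -0.012 and 0.24, both negative only without PC9. With a Ct limit of 32 the mean of miR-29b was -0.042, over 3 lines. Without a filter the mean of miR-29c# was 0.012. Members 2-fold changed in PC9 numbered 2 with U6, 1 with RNU48, 2 with all control RNAs and 2 in the deposited ratios, against 0. Other assays rose as well under these scalings. Of the 135 assays at Ct 32 or below in PC9, the microRNA mean had 5 at 2-fold higher and 4 at 2-fold lower. The 2-fold higher assays became 22 (RNU48), 26 (all control RNAs) and 45 (U6), and the 2-fold lower ones 0 in each case. The count of assays differing between lines was 98 to 193 when a line was left out, against 191, the 98 being without PC3. The call of miR-29b between lines held in 4 of 14 settings, with adjusted p of 0.0212 to 0.602 (limma); the cause was not tested. For the pairs, leaving out a line gave -0.35 to 0.29 for miR-29b minus miR-29a, -0.22 to 0.0094 for miR-29c minus miR-29a, -0.30 to 0.14 for miR-29c minus miR-29b, -0.46 to 0.026 for miR-29b-1# minus miR-29b, -0.80 to 0.00380 for miR-29c# minus miR-29c and 0.28 to 1.06 for miR-29a# minus miR-29a.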
